A study of Mus musculus with 6 samples.

Results

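The genes of haemoglobin and iron handling were followed as 10 genes chosen by name out of 26754 in the tables: the beta globins Hbb-bs and Hbb-bt, the alpha globins Hba-a1 and Hba-a2, the haem oxygenase gene Hmox1, the ferritin chains Ftl1 and Fth1, the transferrin receptor Tfrc, the iron exporter Slc40a1 and the phagosomal metal transporter Slc11a1. RNA came from tumours of B16, a mouse melanoma line, grown under the skin of female C57BL/6J mice (genotype label C57, 6 to 8 weeks old). The day 14 group and the day 7 group hold 3 libraries each, named for the days since the melanoma cells were implanted, and the labels name no other treatment in either. In both groups cells were taken from the tumour and enriched on a magnetic column with beads against CD8a, part of the co-receptor of cytotoxic T cells. Whether tumours were pooled and whether replicates are separate mice is not given in the sources used here, so p-values measure only the spread between these libraries, which may be technical.

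Haemoglobin is a tetramer of 2 alpha and 2 beta globin chains, each holding a haem group, and its transcripts are made in red cell precursors and kept for a while in young red cells. When red cells are taken up by macrophages, haem oxygenase opens the haem ring and frees iron, ferritin stores it and ferroportin, the product of Slc40a1, exports it, while other cells take up iron through the transferrin receptor. Iron regulatory proteins bind a hairpin called the iron-responsive element: bound in the leader of a ferritin or ferroportin transcript it blocks translation, and bound in the tail of the Tfrc transcript it protects that transcript from decay.

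Reads assigned to genes numbered 11385106 to 13316522 per library on day 14 and 6523019 to 9313078 on day 7. The deposited unit, RPKM, divides reads by gene length and by the library total, and CPM here divides them by the library total alone. A chi-square comparison of day 7 replicates 1 and 2 gave a median ratio of 1.11 to sampling noise, while either against replicate 3 gave 40.9 and 44.4. Pairs of day 14 replicates gave 4.05 to 4.43. Day 7 replicate 3 thus stood further from replicates 1 and 2 than day 14 replicates stood from each other. Because replicates 1 and 2 were nearly as alike as repeat draws from 1 library, their mean was counted as 1 sample, which leaves 3 samples on day 14 and 2 on day 7. The labelled cell type was checked with 12 CD8 T cell markers, which summed to 304 to 324 CPM on day 14 and to 1082 to 1154 on day 7. The 10 melanocyte markers summed to 26250 to 28510 CPM on day 14 and to 14610 to 15230 on day 7, so melanocyte transcripts outnumbered T cell marker transcripts in every library. limma tested 6691 genes that averaged at least 20 CPM, of which 327 (4.89%) passed an adjusted p under 0.05, 114 higher and 213 lower on day 14. Median-of-ratios scaling gave 62 higher and 289 lower and a median log2 fold change over all tested genes of 0.012, against 0.156 without that scaling. Without day 7 replicate 3 the number of calls was 124.

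The globin copies are shown first because they share most of their sequence. The coding sequences of Hbb-bs and Hbb-bt differ at 1 base of 441, C417T, and those of Hba-a1 and Hba-a2 at 1 base of 426, C381T, with the Hbb-bs or Hba-a1 base first and positions counted from the A of the start codon. The 40 coding bases around each difference, from GENCODE M21 on GRCm38, are given with the differing base in capitals (chr7:103826673-103826712 and chr7:103812664-103812703 on the minus strand, chr11:32284323-32284362 and chr11:32297140-32297179 on the plus strand).
Hbb-bs: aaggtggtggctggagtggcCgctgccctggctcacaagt
Hbb-bt: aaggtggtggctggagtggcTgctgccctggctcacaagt
Hba-a1: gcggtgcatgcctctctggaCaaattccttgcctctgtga
Hba-a2: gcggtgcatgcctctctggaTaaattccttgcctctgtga
Of all stretches of 150 bases, the read length in the labels, 58.7% in the Hbb-bs transcript also stand in that of Hbb-bt, and 65.7% in the Hba-a2 transcript also stand in that of Hba-a1. How reads that match both copies were counted is not given in the sources used here, so the split between copies is uncertain and sums over the copies are given beside it.

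The upstream sequences of the beta globin copies differ more than their coding sequences, so 110 bases before each RefSeq start (GRCm38.p6) are shown. Capitals mark matches on either strand to the letters CCACACCC, a form of the CACCC box bound by the red cell factor KLF1, to the letters CCAAT of the CAAT box, and to the letters ATATAA of a TATA box. The windows are for Hbb-bs on chr7:103827929-103828038 and Hbb-bt on chr7:103813924-103814033, minus strand.
Hbb-bs: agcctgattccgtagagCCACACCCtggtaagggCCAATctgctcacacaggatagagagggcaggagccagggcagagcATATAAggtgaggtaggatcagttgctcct
Hbb-bt: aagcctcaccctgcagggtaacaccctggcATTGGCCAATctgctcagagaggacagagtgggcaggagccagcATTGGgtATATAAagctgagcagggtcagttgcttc
The letters of the first motif start at position -93 of Hbb-bs and do not stand in the Hbb-bt window. Both windows hold the other motifs, and in Hbb-bt CAAT box matches on opposite strands stand side by side with no shared base. Whether these letters bear on the RPKM of the copies was not tested. Of 32851 RefSeq promoter windows of 250 bases before the start, 3.2% hold the first motif, 33.8% the CAAT box letters and 9.1% the TATA box letters on either strand. The alpha globin copies share an unbroken stretch of 247 of these 250 bases. The promoter table held 8 of the 10 genes by symbol, without Hmox1 and Slc40a1.

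The iron-responsive elements are shown because they tie ferritin, ferroportin and transferrin receptor transcripts to iron. The search, on the transcript strand alone, asked for a bulged C, a stem of 5 pairs (G with T allowed) and the loop CAGTGN, which is in capitals. Each window has 29 bases of a GENCODE M21 transcript on GRCm38. Fth1 lies at chr19:9982732-9982760 (plus), Ftl1 at chr7:45459779-45459807 (minus) and Slc40a1 at chr1:45925465-45925493 (minus), each in the 5′ UTR. The 4 Tfrc sites lie in its 3′ UTR on the plus strand, at chr16:32631219-32631247, chr16:32631598-32631626, chr16:32631663-32631691 and chr16:32631710-32631738.
Fth1: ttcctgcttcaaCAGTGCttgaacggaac
Ftl1: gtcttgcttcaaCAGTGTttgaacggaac
Slc40a1: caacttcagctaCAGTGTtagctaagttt
Tfrc site 1: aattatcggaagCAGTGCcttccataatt
Tfrc site 2: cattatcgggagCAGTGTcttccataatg
Tfrc site 3: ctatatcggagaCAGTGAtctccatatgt
Tfrc site 4: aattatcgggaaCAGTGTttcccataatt
The pattern was found in 4 of the 10 genes, and in 271 of 21877 genes (1.24%) when the longest protein-coding transcript of every gene was searched, whatever its length. The erythroid enzyme gene Alas2 also held 1 site in its 5′ UTR. The match is a description of the letters and says nothing of binding.

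Among the 10 genes, 9 passed the level filter and 3 of these, Hmox1, Fth1 and Tfrc, were higher on day 14 by the limma test, with none lower, against 1.7% of all tested genes higher and 3.18% lower. The 6 libraries did not overlap between the days in 4 of the 9 genes upward (31.6% of all tested genes) and in 1 downward (17.8%). In RPKM the order of levels was Hbb-bs, Fth1, Hba-a1, Hba-a2, Ftl1, Hmox1, Hbb-bt, Tfrc, Slc11a1 and Slc40a1 on day 14. On day 7 it was Hbb-bs, Fth1, Hba-a1, Hba-a2, Ftl1, Hbb-bt, Hmox1, Tfrc, Slc11a1 and Slc40a1, so that Hmox1 and Hbb-bt changed places. Neighbours whose libraries overlapped in range were Ftl1 and Hmox1, and Hmox1 and Hbb-bt, on day 14, and Hba-a1 and Hba-a2, and Ftl1 and Hbb-bt, on day 7. In RNA from bulk samples, fewer cells of a type and less RNA per cell cannot be told apart.

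**Figure D1:**
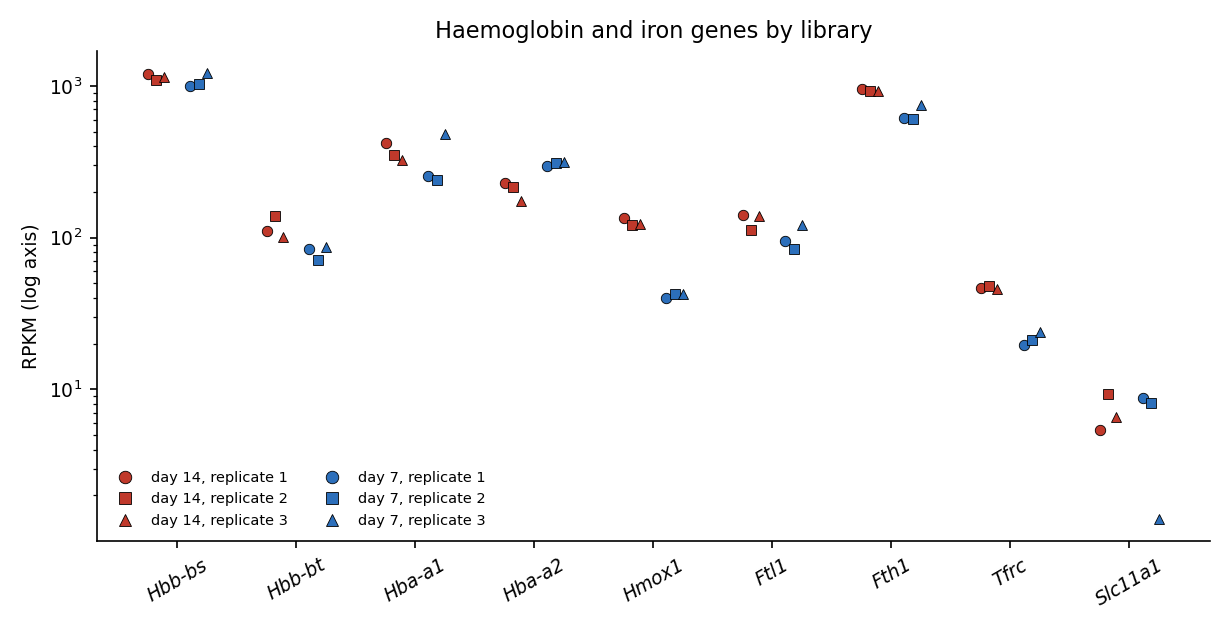
RPKM (log axis) of 9 of the 10 genes in each library, day 14 in red left of day 7 in blue, with 1 point per library and a symbol per replicate; Slc40a1, below 1 RPKM in all libraries, is left out. Day 14 points of Hmox1, Fth1 and Tfrc lie above all day 7 points, and Slc11a1 has 1 low point at 1.41 in day 7 replicate 3.

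The globin genes did not move together. Their reads together made up 1497, 1363 and 1328 CPM in the day 14 libraries and 1226, 1240 and 1598 in day 7 replicates 1 to 3. The highest of the 6 values was a day 7 library, and the groups overlapped. The log2 difference of the means was -0.0097 (exact two-sided permutation p = 1 over 10 splits of 5 samples, where the smallest possible p is 0.1), and it changed sign to 0.18 without day 7 replicate 3, to 0.01 without day 14 replicate 2 and to 0.03 without day 14 replicate 3.

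Hbb-bs, an adult beta globin gene (chromosome 7, 103826534 to 103828096, minus strand), had 1200, 1093 and 1144 RPKM on day 14 and 995, 1023 and 1217 on day 7. These were the highest levels of the 10 genes on both days. The log2 fold change was 0.05 (SE 0.09, 95% interval -0.16 to 0.25, limma adjusted p = 0.829), 0.18 without day 7 replicate 3 and -0.11 with median-of-ratios scaling. Hbb-bt, its near-identical neighbour (chromosome 7, 103812524 to 103813996, minus strand), had 111, 138 and 101 RPKM on day 14 and 84.2, 71.5 and 86.4 on day 7. Every day 14 library was above every day 7 library, but the fold change of 0.49 (interval -0.16 to 1.14) did not pass the test (adjusted p = 0.39). The RPKM ratio of Hbb-bs to Hbb-bt was 10.8, 7.90 and 11.3 on day 14 and 11.8, 14.3 and 14.1 on day 7.

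Hba-a1 (chromosome 11, 32283511 to 32284465, plus strand), the first of the adult alpha genes, had 423, 349 and 324 RPKM on day 14 and 253, 242 and 481 on day 7. Day 7 replicate 3 stood above all other libraries and the other day 7 libraries below them. The means, 365 ± 51.5 RPKM on day 14 (SD, n = 3) and 364 ± 165 RPKM on day 7 (SD, n = 2), differed by less than that spread (log2 fold change 0.07, adjusted p = 0.904), and without day 7 replicate 3 the fold change was 0.55. The sign turned to -0.04 without day 14 replicate 1 and to -0.09 with median-of-ratios scaling. Hba-a2 (chromosome 11, 32296489 to 32297298, plus strand), its near-identical neighbour, had 231, 215 and 173 RPKM on day 14 and 295, 311 and 317 on day 7. All day 14 libraries were lower, with 206.5 ± 29.9 RPKM (SD, n = 3) on day 14 against 310.2 ± 9.85 RPKM on day 7, where n is 2, and a log2 fold change of -0.59 (SE 0.19, interval -1.02 to -0.17). This did not pass the test over all genes (limma adjusted p = 0.116), and it turned to 1.36 per T cell transcript, where the median of all genes was 1.97.

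The split between the alpha copies differed between libraries by more than their sum. The RPKM ratio of Hba-a1 to Hba-a2 was 1.83, 1.62 and 1.87 on day 14 and 0.858, 0.776 and 1.52 on day 7. In day 7 replicates 1 and 2 Hba-a2 was the higher copy, and in the other 4 libraries Hba-a1 was. The summed alpha globin level was 654, 564 and 497 RPKM on day 14 and 548, 553 and 798 on day 7, and the summed beta globin level was 1311, 1231 and 1245 RPKM on day 14 and 1080, 1095 and 1304 on day 7. The ratio of alpha to beta globin was 0.499, 0.458 and 0.399 on day 14 and 0.508, 0.505 and 0.612 on day 7. It was lower in all 3 day 14 libraries, with a log2 difference of -0.31, which did not reach significance (exact two-sided permutation p = 0.2, n = 3 and 2). Without day 7 replicate 3 the difference was -0.17. Beta exceeded alpha globin RPKM in all 6 libraries.

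**Figure D2:**
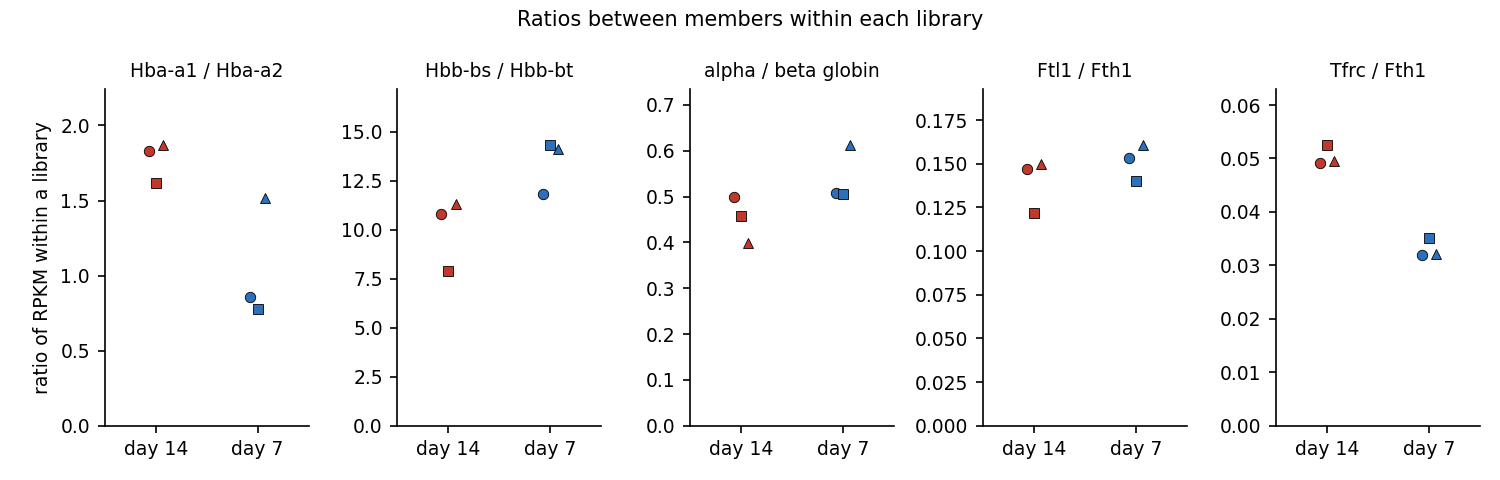
Ratios of RPKM between genes within each library (vertical axes start at 0, no unit), with day 14 in red left of day 7 in blue and 1 point per library. Circles are replicate 1, squares replicate 2 and triangles replicate 3. The Tfrc to Fth1 ratio is at 0.0492 to 0.0525 on day 14, above the 0.0320 to 0.0352 of day 7, while the Ftl1 to Fth1 ratio overlaps between the days.

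Transcripts that mark red cell precursors beside globin were mostly near 0. Of 19 erythroid markers in the tables, 11 had no read in any day 7 library and Rhag had none in all 6. Over all 26754 genes, 13133 to 13806 had reads in each day 7 library and 18318 to 19053 in each day 14 library. A value of 0 on day 7 was therefore common, here and for the genes below. Slc4a1, which encodes the anion exchanger band 3, was at 0.28 to 0.40 RPKM on day 14 and 0 on day 7. The 5 tested markers had a median log2 fold change of 0.49 against 0.16 for all genes, and none was called. The whole list summed to 710 to 771 CPM on day 14 and 511 to 537 on day 7. Alas2, the erythroid enzyme that starts haem synthesis, had 42.33, 37.6 and 40.03 RPKM on day 14 and 25.95, 23.41 and 11.99 on day 7 (log2 fold change 1.16, SE 0.33, adjusted p = 0.0786). Among other globin genes none was tested, Hbb-bh1 and Cygb had no read in 6 libraries, and the muscle globin Mb was at 0.14, 0.13 and 0.42 RPKM on day 14 and 4.51, 7.72 and 0.24 on day 7. Hbq1a was at 0, 0 and 0.99 RPKM on day 14 and listed at 0 on day 7.

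**Figure D3:**
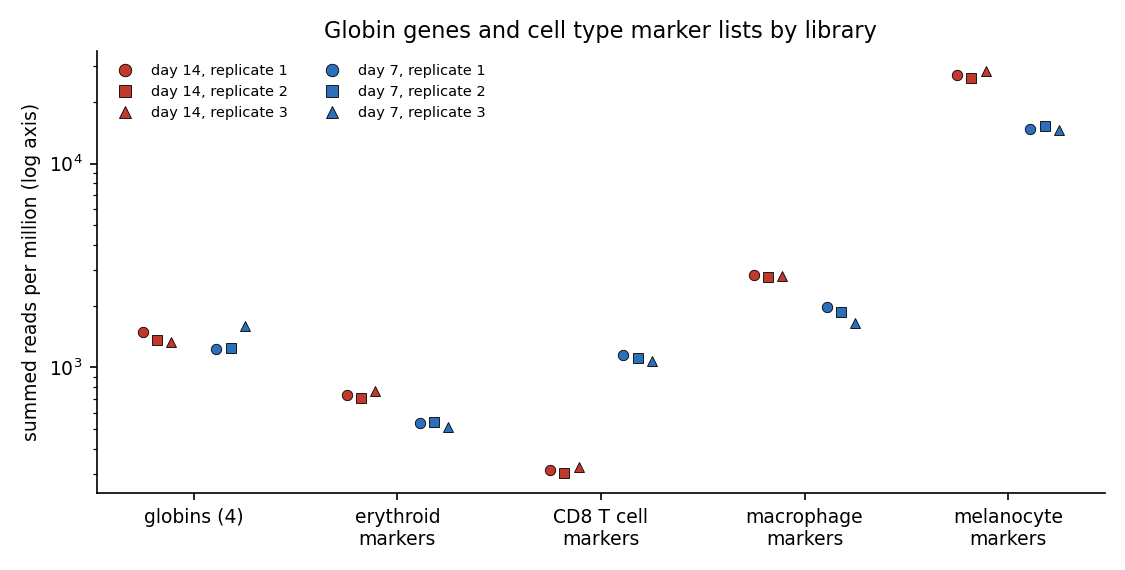
Summed CPM (log axis) of the 4 globin genes and of 4 marker lists in each library, with day 14 in red left of day 7 in blue. Globin sums overlap between the days at 1226 to 1598, while T cell marker sums are lower on day 14 and melanocyte, macrophage and erythroid sums are higher.

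Hmox1, which encodes the inducible enzyme that breaks haem into iron, carbon monoxide and biliverdin (chromosome 8, 75093621 to 75100589, plus strand), rose more than any other of the 9 tested genes. It had 134, 121 and 122 RPKM in the day 14 libraries and 40.1, 42.8 and 42.6 in the day 7 libraries. The days were far apart and the libraries of each day close together, with means of 126 ± 7.08 RPKM on day 14 (SD, n = 3) and 42.0 ± 0.767 RPKM on day 7 (SD, n = 2). On the log2 scale the change was 1.56 (SE 0.24, 95% interval 1.04 to 2.08, limma adjusted p = 0.00343). Without day 7 replicate 3 the fold change was 1.58 and the adjusted p 0.0501, as that fit has 1 day 7 sample. Of 11 tested macrophage markers 5 were higher and none lower on day 14, against 1.7% higher and 3.18% lower among all tested genes. The 12 listed markers summed to 2774 to 2832 CPM on day 14 and to 1653 to 1969 on day 7. The part of macrophages and of melanoma cells in the Hmox1 change was not tested.

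Markers tied to iron-recycling macrophages of spleen and liver did not all go the same way. Of 6 tested, 4 were higher and none lower on day 14, against 1.7% higher and 3.18% lower among all tested genes. The 4 were the scavenger receptor Marco, the secreted protein Cd5l and the complement chains C1qa and C1qb. The last 2 were also among the macrophage markers above. Marco had 36.2, 32.8 and 35.0 RPKM on day 14 and was listed at 0 in all day 7 libraries. Cd5l had 26.5, 20.6 and 17.9 RPKM on day 14 and 0.49, 0.32 and 0 on day 7. Cd163, the receptor for haemoglobin bound to haptoglobin, was at 1.91, 0.99 and 1.21 RPKM on day 14 and 0.14, 0.16 and 0 on day 7 and was not tested. Spic, the transcription factor of red pulp macrophages, was at 0.12 to 0.55 RPKM on day 14 and at 0 on day 7, and Vsig4 had no read in any library. C1qc, a partner chain of C1qa and C1qb, was not called, with 16.3, 17.5 and 17.1 RPKM on day 14 and 27.3, 23.2 and 12.2 on day 7, and Axl was not called either. Mertk, a receptor for dying cells, had 2.57, 3.67 and 3.69 RPKM on day 14 and 6.25, 7.18 and 0.21 on day 7. Timd4, another such receptor, had 0.32, 0.22 and 0.07 RPKM on day 14 and 2.43, 2.17 and 0 on day 7, and neither was tested. Vcam1, an adhesion molecule, had 2.18, 1.98 and 2.06 RPKM on day 14 and 1.25, 0.99 and 0.17 on day 7. The list summed to 379 to 426 CPM on day 14 and 157 to 213 on day 7.

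The ferritin heavy chain rose by less than Hmox1, and the light chain did not pass the test. Fth1, the chain that oxidises iron for storage (chromosome 19, 9982703 to 9985092, plus strand), had 954, 920 and 929 RPKM on day 14 and 616, 603 and 750 on day 7. Every day 14 library was above every day 7 library, with means of 934 ± 17.8 RPKM on day 14 (SD, n = 3) and 680 ± 99.1 RPKM on day 7 (SD, n = 2). The log2 fold change was 0.47 (SE 0.10, interval 0.24 to 0.69, limma adjusted p = 0.0265). With median-of-ratios scaling the change was 0.31 and no longer a call (adjusted p = 0.135), and the call also ended without day 14 replicate 1 (adjusted p = 0.0789) and without day 14 replicate 2 (adjusted p = 0.0566).

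Ftl1, the chain that helps the iron core form (chromosome 7, 45457944 to 45459884, minus strand), had 141, 112 and 139 RPKM on day 14 and 94.5, 84.6 and 120 on day 7. Day 7 replicate 3 lay within the range of day 14, and the log2 fold change of 0.32 had an interval of -0.23 to 0.87 (adjusted p = 0.521). It was 0.53 without day 7 replicate 3, 0.16 with median-of-ratios scaling and 0.19 by limma-voom on the recovered reads. Its value is uncertain for 2 reasons, since the gene models Gm22133 on the same strand (462, 403 and 439 reads on day 14 and 223, 217 and 152 on day 7) and Gm10252 on the opposite strand (873, 867 and 1137 reads on day 14 and 397, 432 and 444 on day 7) overlap it and the strand setting of the count is not given in the sources used here. The processed copies Ftl1-ps1, with 52 to 56 reads (day 14) and 6 to 16 (day 7), and Ftl2-ps, with 8 to 12 reads and none, held few reads next to the 1886 to 2481 of Ftl1 on day 14. The RPKM ratio of Ftl1 to Fth1 was 0.147, 0.122 and 0.150 on day 14 and 0.153, 0.140 and 0.161 on day 7 (log2 difference -0.14, exact two-sided permutation p = 0.6). It was -0.05 without day 14 replicate 2 and -0.08 without day 7 replicate 3. Both chains together took 1015, 947 and 991 CPM on day 14 and 660, 636 and 811 on day 7. No day 14 library overlapped a day 7 library, with a log2 difference of 0.44 (exact two-sided permutation p = 0.1, the smallest that 3 against 2 samples can give), and 0.28 with median-of-ratios scaling.

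Tfrc, the receptor that takes up iron bound to transferrin (chromosome 16, 32608920 to 32632794, plus strand), rose on day 14. It had 46.9, 48.3 and 46.0 RPKM on day 14 and 19.7, 21.2 and 24.0 on day 7, so the groups were well separated, at 47.1 ± 1.14 RPKM on day 14 (SD, n = 3) and 22.2 ± 2.53 RPKM on day 7 (SD, n = 2), a 2.12-fold difference of the means. The log2 fold change of 1.05 (SE 0.27, interval 0.46 to 1.64) lay just inside the threshold (limma adjusted p = 0.0491). Leaving out day 7 replicate 1 gave an adjusted p of 0.0527, day 7 replicate 3 one of 0.178, and day 14 replicates 1, 2 and 3 gave 0.0759, 0.0741 and 0.0681, while the fold change stayed between 1.03 and 1.16. With median-of-ratios scaling it was 0.90 (adjusted p = 0.0873). The RPKM ratio of Tfrc to Fth1 was 0.0492, 0.0525 and 0.0495 on day 14 and 0.0320, 0.0352 and 0.0321 on day 7, higher in all day 14 libraries. The stabilising element of Tfrc and the translational element of Fth1 printed above are known to act on different steps, decay and translation, and RNA levels do not measure ferritin protein.

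**Figure D4:**
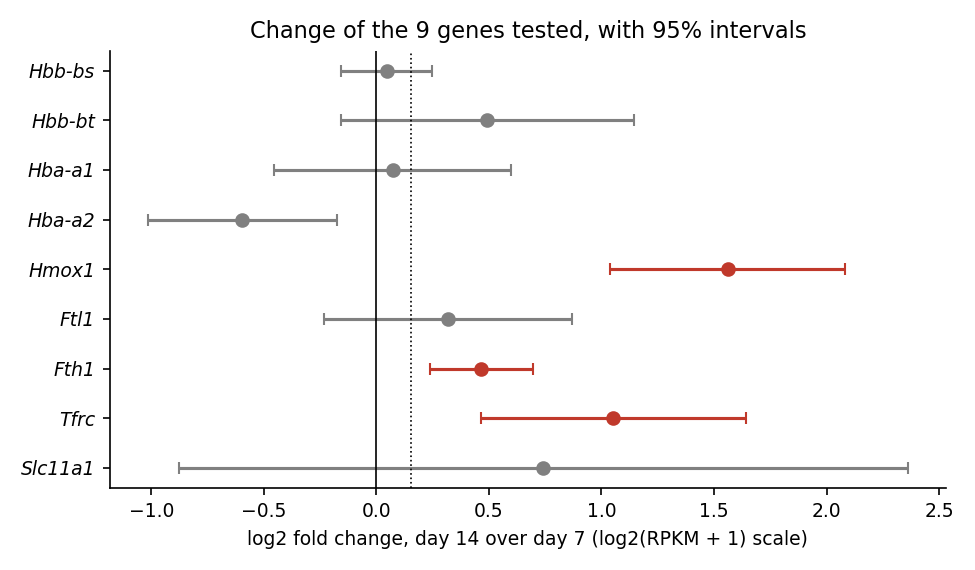
The log2 fold change of day 14 over day 7 on the log2(RPKM + 1) scale for the 9 genes tested, with 95% intervals from limma; red points passed an adjusted p under 0.05 and the dotted line is the median of all tested genes at 0.156. Hmox1 (1.56), Tfrc (1.05) and Fth1 (0.47) passed, and the interval of Slc11a1 is the widest.

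Slc40a1, which encodes ferroportin, the only known iron exporter of mammalian cells (chromosome 1, 45908068 to 45926523, minus strand), was too low to be tested. It had 52, 40 and 70 reads on day 14 and 0, 4 and 6 on day 7, which is 0.507, 0.354 and 0.584 RPKM on day 14 against 0, 0.048 and 0.102 on day 7. Every day 14 library was higher. Without the level filter the log2 fold change was 0.48 on the log2(RPKM + 1) scale, which understates changes of low genes, with an adjusted p of 0.204. Its gene model in the tables is 9000 bases long, against 3370 in the GENCODE transcript that holds the element printed above, and RPKM is divided by the longer length.

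Slc11a1, also known as Nramp1, moves iron and other metals out of phagosomes in macrophages and neutrophils. Its gene lies on chromosome 1 at 74375195 to 74386062 on the plus strand, and C57BL/6 mice carry a loss-of-function allele of it. It had 5.41, 9.37 and 6.61 RPKM on day 14 and 8.74, 8.11 and 1.41 on day 7. The low value of day 7 replicate 3, 34 reads against 258 and 280 in the other day 7 libraries, set the sign. The log2 fold change was 0.74 with an interval of -0.88 to 2.36 (adjusted p = 0.623), and -0.24 without day 7 replicate 3. The 12 macrophage markers summed to 1969, 1875 and 1653 CPM in day 7 replicates 1, 2 and 3 and did not move together there. Mrc1, the mannose receptor, was lowest of day 7 in replicate 3 at 4.67 RPKM, against 19.0 and 17.8 in replicates 1 and 2, while C1qa was highest there at 19.8 RPKM, against 13.3 and 11.6. The part of macrophages in the low Slc11a1 value was not tested.

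Per T cell transcript, that is after division by the summed RPKM of the 12 CD8 T cell markers, all 9 tested genes were higher on day 14, as were 6336 of 6691 genes. This sum was 150, 151 and 160 RPKM on day 14 and 636, 622 and 571 on day 7, and the median over all tested genes became 1.97 (log2). Against that median Hmox1 (3.50), Tfrc (2.96), Hbb-bt (2.44), Fth1 (2.42), Slc11a1 (2.40) and Ftl1 (2.27) were above it, Hba-a1 (2.03) and Hbb-bs (2.01) close to it and Hba-a2 (1.36) below it.

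The wider set of haem and iron metabolism held 94 genes in 8 lists. Of these 42 were tested, of which 1 rose and none fell, against 1.7% higher and 3.18% lower among all tested genes. The median log2 fold change was 0.17 against 0.16 for all genes. The gene that rose was Pcbp1, whose human counterpart carries iron to ferritin, with 79.0, 70.7 and 71.0 RPKM on day 14 and 28.1, 20.9 and 43.4 on day 7 (log2 fold change 1.15, SE 0.28, adjusted p = 0.0426). It was 1 of 5 tested genes of iron storage and delivery, whose median was 0.09.

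In haem synthesis none of 3 tested genes was called (median 0.46), and Alas1, the enzyme of other tissues that starts the pathway, had 8.38, 10.9 and 10.1 RPKM on day 14 and 7.23, 7.44 and 9.61 on day 7. In haem breakdown and transport none of 7 was called (median 0.16). Lrp1, the receptor for haem bound to haemopexin, had 14.3, 15.6 and 14.2 RPKM on day 14 and 6.08, 6.52 and 3.06 on day 7 (adjusted p = 0.0978), and the haem carrier gene Pgrmc2 had 22.6, 22.3 and 24.1 on day 14 and 11.4, 13.4 and 21.9 on day 7 (adjusted p = 0.474). Libraries of both genes did not overlap between the days. This held for 2 of these 7 genes upward and 2 downward, against 31.6% upward and 17.8% downward of all tested genes.

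In iron uptake and export none of 3 tested was called (median 0.14). Trf, which encodes transferrin, had 32.7, 36.5 and 33.3 RPKM on day 14 and 33.1, 33.6 and 28.5 on day 7, and Cp, the ferroxidase ceruloplasmin, had 5.34, 4.11 and 3.88 on day 14 and 4.42, 3.91 and 3.41 on day 7. The carrier Trf therefore overlapped between the days while its receptor Tfrc did not. In iron regulation none of 5 was called (median 0.68). Fbxl5, which marks iron regulatory protein 2 for breakdown when iron is plentiful, had 7.95, 7.65 and 6.49 RPKM on day 14 and 6.87, 5.29 and 5.24 on day 7. Its partner in the ubiquitin ligase, Skp1a, had 33.5, 39.2 and 34.7 on day 14 and 19.3, 18.6 and 15.7 on day 7 (adjusted p = 0.109).

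Among genes of mitochondrial iron and iron-sulphur clusters none of 11 tested was called (median -0.05). Isca1, an assembly factor, had 9.71, 10.1 and 12.1 RPKM on day 14 and 7.14, 8.36 and 13.2 on day 7. Hmox1 and both ferritin genes are known targets of the factor NRF2 and are held down by BACH1, and none of 8 tested regulators and other targets of these factors was called (median 0.43). Nfe2l2, which encodes NRF2, had 22.9, 22.2 and 21.6 RPKM on day 14 and 21.8, 24.6 and 8.48 on day 7, and its target Txnrd1, a thioredoxin reductase, had 60.7, 65.8 and 64.2 on day 14 and 90.1, 87.2 and 47.8 on day 7.

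The genes most like each of the 9 were found by the root mean square difference of their log2(RPKM + 1) profiles over the 6 libraries, each centred on its mean, among 6342 named genes. Nearest to Hmox1 were Gsta4, Vcan and Ccl6, at 0.076 to 0.095, where the median of all genes was 0.764. Gsta4, a glutathione transferase, had 59.4, 56.0 and 47.6 RPKM on day 14 and 17.6, 18.3 and 18.2 on day 7, and Ccl6, a chemokine of myeloid cells, had 187, 167 and 163 on day 14 and 53.7, 54.0 and 66.8 on day 7. Nearest to Tfrc were Ugp2, Cwf19l2 and Ero1l, at 0.054 to 0.063 with a median of 0.563. Nearest to Fth1 were Gars, Uqcrc1 and Lgals8, at 0.033 to 0.035 with a median of 0.375. Nearest to Ftl1 were Coasy, Med28 and Ivns1abp, at 0.029 to 0.057. Nearest to Slc11a1 were Aff3, Ak4 and Atxn7, at 0.104 to 0.114, all low in day 7 replicate 3. The beta globins were closest to Foxj3, Leng8 and Rrp1 (Hbb-bs, 0.036 to 0.042) and to Dhx30, Naa15 and Ice2 (Hbb-bt, 0.073 to 0.076). The alpha globins were closest to Tstd2, Lactb2 and Aim1 (Hba-a1, 0.042 to 0.058) and to Camk1d, BC005537 and Gmnn (Hba-a2, 0.054 to 0.063). No globin gene was among the nearest of another because the 10 genes were left out of the search, and no erythroid marker was among the 3 nearest to any globin.

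Other blood cell markers were mostly low. Of 12 neutrophil markers only Csf3r passed the filter and was not called, and the list summed to 63.4 to 74.3 CPM on day 14 and 20.3 to 28.5 on day 7. The 9 platelet markers summed to 20.5 to 24.3 on day 14 and 2.01 to 5.21 on day 7, and none was tested. Most of these reads came from Pf4, except in day 7 replicate 3, where Gp1ba had 26 reads and Pf4 8. The 10 endothelial markers summed to 81.2 to 91.5 on day 14 and 71.7 to 92.3 on day 7, with 1 tested and not called. Of 10 tested melanocyte markers 4 were higher and none lower, and of 10 tested CD8 T cell markers 7 were lower and none higher. Among all tested genes 1.7% were higher and 3.18% lower.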

How the data were processed

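Stranded poly-A libraries with molecular identifiers were sequenced as read pairs, per the labels' protocols. The submitters' processing notes name Trimmomatic 0.36, Subread 1.5.1, featureCounts and the build GRCm38. No aligner, strand setting or use of the identifiers is given in the sources used here. The authors deposited RPKM per gene and library. RPKM times gene length gave whole reads within 0.001 in every gene, so CPM, reads scaled to the library total, could be computed. Reads are not independent molecules, and no interval rests on them.

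limma 3.58.1 in R 4.3.3 was fitted to log2(RPKM + 1) of genes that averaged at least 20 CPM over 5 samples. Each day's precision weights were the inverse of its variance as smoothed against expression by loess (span 0.3, floor 0.005). p-values were Benjamini-Hochberg adjusted over all genes. Sums and ratios had exact permutation tests. The fit was also run on simulated data, in which day 7 replicate 2 was a scaled copy of replicate 1. That run cannot check the averaging of these libraries, and no conclusion is drawn from it. The members, lists, averaged sample, filter and weights were chosen with earlier results of these data known. All 10 members are named. From each pathway list the called genes with the 4 smallest p are named, or the 2 with the highest mean CPM where none was called, and beside each tested member its 3 nearest profiles. Other genes were chosen after their values were seen. Some genes that the rule names are not reported here. Alternatives changed the pseudocount, filter, weights, scaling, test, averaging and libraries.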

Additional observations from a re-analysis of the deposited data

How the results depend on the processing

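Across 16 other settings Hmox1, Fth1, Tfrc, Hbb-bt and Ftl1 kept a positive fold change. The number of genes called, 327, became 531 with a mean of 5 CPM or more, 1465 with no filter beyond 1 read, 1011 with no weights, 1563 with 6 libraries counted singly, 1204 by limma-voom on the recovered reads, 650 with loess on the log of the variance (added after seeing the data), 6350 per T cell transcript (6336 higher and 14 lower) and 124 to 332 leaving out 1 library. The causes were not tested. Tfrc lost its call at 1.05 with 5 CPM or more and at 1.05 with no filter, and at 0.90 with median-of-ratios scaling, and Fth1 at 0.47 with no filter and 0.31 with median-of-ratios scaling. Leaving out 1 library, fold changes ranged from 1.52 to 1.59 for Hmox1, 0.45 to 0.61 for Fth1, 1.03 to 1.16 for Tfrc, -0.04 to 0.55 for Hba-a1, -0.24 to 0.90 for Slc11a1 and -0.06 to 0.18 for the globin sum. Hba-a2 gained a call at -0.59 with no filter, no weights and the log variance, at -0.58 with 6 libraries singly and at -0.76 by limma-voom. Per T cell transcript Hbb-bs (2.01), Hbb-bt (2.44), Hba-a1 (2.03), Ftl1 (2.27) and Slc11a1 (2.40) gained a call, and Hba-a2 (1.36) and the globin sum (1.95) turned positive. Hbb-bs and Hba-a1 turned to -0.11 and -0.09 with median-of-ratios scaling and to -0.10 and -0.04 by limma-voom, and the globin sum to 0.05 with 6 libraries singly. The alpha to beta and Ftl1 to Fth1 ratios stayed below 0 and the ferritin sum above 0 in all settings run.

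Deviations of libraries with the same replicate number from their day's mean correlated at -0.014, -0.015 and -0.034 over 6691 genes. These values cannot decide whether libraries were paired, since day 7 replicates 1 and 2 were nearly alike and the values are not separate checks. With the replicate block on 6 single libraries 1151 genes were called, and Hba-a2 was called at -0.58 (adjusted p = 0.036). Day 7 rests on 2 distinct samples, which limits every test here.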

Other observations

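Some further iron and haem genes, chosen with their values already known, differed between day 7 libraries or between the days. Hamp2, a mouse hepcidin gene, was listed at 0 in the 3 day 14 libraries and had 26.6, 27.3 and 0.54 RPKM on day 7, while the main hepcidin gene Hamp was at 0, 0.97 and 0 on day 14 and at 0, 0 and 0.75 on day 7. The hepcidin regulator gene Hfe had 4.18, 7.42 and 6.43 RPKM on day 14 and 0.14, 0 and 16.1 on day 7. Bach1, the repressor of Hmox1 and ferritin genes, had 7.32, 4.66 and 7.499 RPKM on day 14 and 0.65, 0.70 and 0.20 on day 7, above in every day 14 library, and did not pass the test over all genes. The haem scavenger gene Hpx was at 0.12, 0.11 and 0 RPKM on day 14 and at 5.52, 5.30 and 0 on day 7. The haptoglobin gene Hp, whose protein binds free haemoglobin, was at 3.61, 3.97 and 2.48 RPKM on day 14 and at 11.1, 11.8 and 12.6 on day 7, lower in every day 14 library, and too low to be tested.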
